A study of Arabidopsis thaliana with 31 samples.

Results

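The genes described here are 9 MADS-box genes that specify the organs of the flower, taken by their identifiers from the 32833 genes of each deposited table. They are SEP1 (AT5G15800), SEP2 (AT3G02310), SEP3 (AT1G24260), SEP4 (AT2G03710), FUL (AT5G60910), AP1 (AT1G69120), AP3 (AT3G54340), PI (AT5G20240) and AG (AT4G18960). Their RNA was measured by sequencing in whole Arabidopsis thaliana seedlings harvested 12 days after germination from soil under long days, a condition that promotes early flowering in this species. Experiment A held gcn5-7 arp6-1 (n = 3), gcn5-7 (n = 3), arp6-1 (n = 3) and Col-0 (n = 2), and experiment B held gcn5-7 nrp1-1 nrp2-2, gcn5-7, nrp1-1 nrp2-2 and Col-0 (n = 5 each). Col-0 is the wild-type accession Columbia-0. The allele gcn5-7 lies in GCN5, which encodes a histone H3 acetyltransferase, and arp6-1 lies in ARP6, a subunit gene of the SWR1 complex that places the histone variant H2A.Z in nucleosomes. The alleles nrp1-1 and nrp2-2 lie in NRP1 and NRP2, a pair of related histone chaperone genes. The crosses ask how loss of GCN5 acts with and without H2A.Z deposition or these chaperones. The labels do not say whether libraries of a group came from separate plants or pools, so the p-values speak for the spread among these libraries, which may be technical.

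MADS-domain proteins bind DNA at CArG boxes and act in complexes with each other. AP1 belongs to the A class of the floral model and marks the young floral meristem, AP3 and PI form the B class of petal and stamen genes, and AG is the C class gene of stamens and carpels. The SEP proteins are the E class, the partners that bring the other classes into common complexes. FUL, a close relative of AP1, acts earlier, in the inflorescence meristem, and later in the fruit and in stem leaves. In leaves and young seedlings these genes are largely held silent by Polycomb repression, and the florigen FT, its partner FD, SOC1, the SPL factors and LFY turn them on as the shoot becomes floral.

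The DNA just upstream of the annotated gene start is shown for the 5 members whose levels passed the filter of experiment A, since the results below turn on them. Each is 300 bases long, reads 5′ to 3′ on the gene's strand and comes from the RefSeq TAIR10.1 genome. Capitals mark a 10-base CArG variant with a longer A/T core or the LFY core CCANTG, searched on both strands, so that adjoining capitals in SEP4 and AP1 hold overlapping matches on opposite strands. The windows lie at chr5:5154254-5154553 (SEP1, minus strand), chr1:8596124-8596423 (SEP3, minus strand), chr2:1128929-1129228 (SEP4, plus strand), chr5:24506270-24506569 (FUL, minus strand) and chr1:25986350-25986649 (AP1, minus strand).
SEP1: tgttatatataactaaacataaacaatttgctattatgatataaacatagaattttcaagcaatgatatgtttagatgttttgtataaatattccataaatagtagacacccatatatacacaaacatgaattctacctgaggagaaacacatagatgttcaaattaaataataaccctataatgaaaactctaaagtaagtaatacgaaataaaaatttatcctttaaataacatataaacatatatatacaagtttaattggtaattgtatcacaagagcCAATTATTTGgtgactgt
SEP3: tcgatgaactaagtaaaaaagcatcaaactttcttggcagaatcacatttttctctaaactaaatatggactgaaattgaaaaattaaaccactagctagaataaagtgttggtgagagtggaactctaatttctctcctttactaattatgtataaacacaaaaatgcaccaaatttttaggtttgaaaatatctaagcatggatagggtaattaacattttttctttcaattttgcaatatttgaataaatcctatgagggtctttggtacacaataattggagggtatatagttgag
SEP4: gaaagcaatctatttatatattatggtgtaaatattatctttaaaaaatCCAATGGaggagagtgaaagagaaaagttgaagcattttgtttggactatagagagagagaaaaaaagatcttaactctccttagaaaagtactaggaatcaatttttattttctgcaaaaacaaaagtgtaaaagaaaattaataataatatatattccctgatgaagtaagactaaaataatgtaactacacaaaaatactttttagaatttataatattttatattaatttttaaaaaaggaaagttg
FUL: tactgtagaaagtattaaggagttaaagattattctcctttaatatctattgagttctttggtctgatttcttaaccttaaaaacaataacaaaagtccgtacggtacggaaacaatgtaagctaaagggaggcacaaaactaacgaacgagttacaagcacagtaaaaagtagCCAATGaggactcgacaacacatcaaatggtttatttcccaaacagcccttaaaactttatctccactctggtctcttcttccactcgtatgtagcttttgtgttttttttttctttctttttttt
AP1: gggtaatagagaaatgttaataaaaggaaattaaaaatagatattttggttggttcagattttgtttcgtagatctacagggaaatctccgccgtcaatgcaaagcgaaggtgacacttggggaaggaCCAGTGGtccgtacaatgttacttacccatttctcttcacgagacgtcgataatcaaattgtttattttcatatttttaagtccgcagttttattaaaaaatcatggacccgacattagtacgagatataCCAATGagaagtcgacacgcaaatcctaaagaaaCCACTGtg
The LFY core was found upstream of 4 of 9 members (SEP2, SEP4, FUL and AP1), and 24.8% of 27438 protein-coding promoters of this length hold it. In AP1 it occurs at 3 places, the nearest of them 8 bases before the gene start. The canonical CArG box was found in 0 of 9 members and in 2.92% of all promoters, and the CArG variant in SEP1 alone and in 29.4% of all promoters. The GAGA repeat GAGAGA, not marked in capitals, was found in 5 of 9 members (SEP2, SEP3, SEP4, PI and AG) and in 23.6% of all promoters. These matches describe letters in the windows and were not tested for binding.

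The deposited values are transcript abundances (TPM) rescaled by the TMM method, so levels are comparable between genes of different length. Whole reads could be recovered from the low values of each column, and by this measure each A library held 38.3M to 39.6M reads and each B library 10.35M to 16.8M. A member's value rested on 0 to 1530 reads in A (median 50.0) and on 0 to 361 in B (median 15.0). In A, replicate 1 of gcn5-7, of arp6-1 and of Col-0 stood apart from the other 8 libraries on the first principal component (68.2% of the variance; scores of -150.1 to -109.1 against -35.4 to 108.3). No label names these 3 libraries as a batch, and results of A are also given with a term for them. ARP6 was at 0.291 to 0.775 in gcn5-7 arp6-1 and at 0.109 to 0.363 in arp6-1, against 18.2 and 36.1 in Col-0. NRP2 was listed at 0 in every gcn5-7 nrp1-1 nrp2-2 library and was at 0 to 0.403 in nrp1-1 nrp2-2, against 9.16 to 14.4 in Col-0, and NRP1 fell to 6.91 ± 2.01 in nrp1-1 nrp2-2, against 27.8 ± 4.68 in Col-0 (SD, n = 5 each). GCN5 RNA averaged 4.44 in gcn5-7 and 5.61 in Col-0 of B, so its level does not check that label. In gcn5-7 against Col-0 of B, NRP2 and NRP1 were higher and ARP6 was lower. Each had an adjusted p below 0.05 (limma), where 26.2% of all genes tested did. The leaf gene RBCS1A was at 10200 to 30000 in A and 7390 to 69200 in B, and the shoot stem cell genes WUS and CLV3 stayed at or below 0.851 in all libraries.

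Levels of the members differed widely within a seedling. In Col-0 of B, SEP4 was the highest member at 13.7 ± 4.8, FUL followed at 5.45 ± 1.01 and SEP1 at 2.46 ± 1.59, and the other 6 members averaged below 1. In Col-0 of A, SEP4 and FUL both averaged 14.1, and the ranges of their 2 libraries overlapped. Requiring an average of 1 or more across the libraries of a table left 5 of 9 members to test in A (SEP1, SEP3, SEP4, FUL and AP1) and 4 of 9 in B (SEP1, SEP3, SEP4 and FUL). SEP3 lay just inside the filter in B, at a mean of 1.035, and AP1 just outside it, at 0.996. Both AP1 and the other low members of B were therefore also read from a fit without the filter.

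In gcn5-7 seedlings SEP4 and FUL fell in experiment B, and AP1 and AG were listed at 0 in every gcn5-7 library of that experiment. SEP4, the E class gene with the highest level in these seedlings, had values of 1.95, 2.13, 2.44, 6.44 and 5.74 in gcn5-7 and of 9.002, 12.3, 10.7, 15.4 and 21.2 in Col-0. Every gcn5-7 library lay below every Col-0 library, and gcn5-7 replicates 4 and 5 were the highest of their group. SEP4 fell by 1.69 ± 0.29 on the log2 scale (SE; adjusted p = 0.000614, limma with Benjamini-Hochberg adjustment over all genes tested). FUL, at 1.25, 2.46, 1.99, 1.86 and 2.03 in gcn5-7 and at 5.46, 5.63, 4.54, 7.03 and 4.59 in Col-0, likewise did not overlap. Its log2 fold change was -1.15 ± 0.21 (adjusted p = 0.00115). All fold changes here are of value + 1 and understate the change of low genes. Thus 2 of 4 tested members were called, where 26.2% of the 19507 genes tested were called, and in whole seedlings fewer cells of a type and less RNA per cell cannot be told apart. Both calls held with each library left out in turn, and within replicates 3 to 5 alone the differences were -1.54 for SEP4 and -1.09 for FUL.

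The other E class genes were low in gcn5-7 of B as well, without passing the test. SEP1 averaged 1.13 ± 0.464 in gcn5-7 and 2.46 ± 1.59 in Col-0, with overlapping libraries (log2 fold change -0.62 ± 0.34, adjusted p = 0.174). SEP3 averaged 0.141 ± 0.126 in gcn5-7 and 0.558 ± 0.426 in Col-0 (log2 fold change -0.42 ± 0.24, adjusted p = 0.197). AP1, the floral meristem gene, was at 0 in each gcn5-7 library and at 0.464, 0.747, 0.277, 0.825 and 0.147 in Col-0. AG was at 0 in each gcn5-7 library and at 1.17, 0.456, 0.465, 1.30 and 1.28 in Col-0. At the depth of the gcn5-7 libraries, 3 reads would have given 0.13 to 0.185 for AP1 and 0.109 to 0.156 for AG. Without the filter AG was called (adjusted p = 0.000326) and AP1 was not (adjusted p = 0.0888), so that AG, SEP4 and FUL, 3 of 9 members, were called where 18.8% of 27984 genes were. AP3 had 0 to 2 reads and PI 3 to 8 reads in a gcn5-7 library, and neither was called. All 9 members had a lower mean log2 value in gcn5-7 than in Col-0, as did 45.6% of all genes, and their median difference was -0.55 against 0.01 for all genes. Scaling to equal sums over nuclear genes, which put the median tested gene at 0.41 where it was 0.06, left all 9 below (median -0.42).

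Some leaf and root genes also changed in the same comparison. Of 8 listed genes of leaf, root and shoot meristem, 5 were tested, in a comparison that called 26.2% of all genes. The leaf genes RBCS1A (13200 in gcn5-7, 29600 in Col-0, adjusted p = 0.0121) and CAB1 (8730 in gcn5-7, 20500 in Col-0, adjusted p = 0.0389) fell, and the leaf gene RCA was tested and not called. The root gene PYK10 rose (120.0 in gcn5-7, 48.0 in Col-0, adjusted p = 0.00691). The other listed root gene, TIP2;3, stayed at 0 to 0.6 in the libraries of B and was not tested. The meristem gene STM, which also marks the cells in which floral meristems start, averaged 2.97 ± 1.36 in gcn5-7 and 5.05 ± 3.33 in Col-0 (adjusted p = 0.542). The part of tissue proportions in the levels of SEP4 and FUL was not tested.

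**Figure D1:**
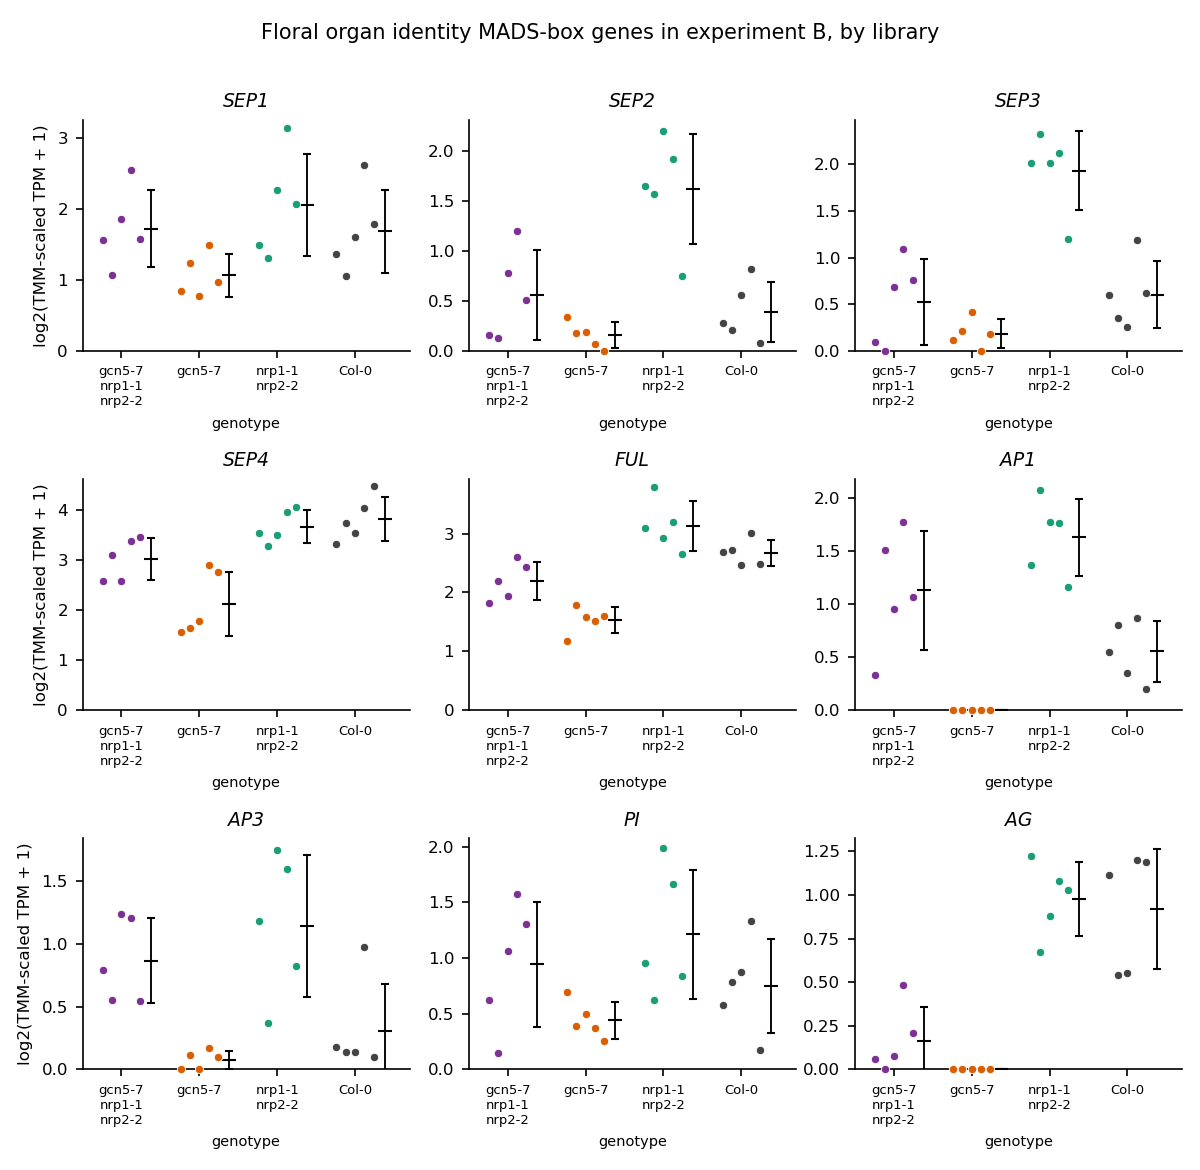
Levels of the 9 genes in experiment B as log2(TMM-scaled TPM + 1), with a point for each library (replicates 1 to 5 from left to right) and a bar for the mean ± SD (n = 5 each); SD bars are cut at 0. All gcn5-7 points of AP1 and AG lie at 0, and SEP3 in nrp1-1 nrp2-2 spans 1.30 to 4.00 TMM-scaled TPM against 0.19 to 1.27 in Col-0.

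The same 9 members were below Col-0 in mean log2 value in gcn5-7 of experiment A, where 48.9% of all genes were, with a median difference of -0.80 against 0.0 for all genes. SEP4 had values of 4.37, 3.57 and 6.32 in gcn5-7 and of 11.2 and 17.1 in Col-0. The groups did not overlap, and the log2 fold change was -1.40 ± 0.37 (adjusted p = 0.205). AP1 had values of 0.025, 0.185 and 0.017 in gcn5-7 and of 1.65 and 0.948 in Col-0, again without overlap (log2 fold change -1.08 ± 0.37, adjusted p = 0.374). FUL overlapped, at 9.54, 3.59 and 2.23 in gcn5-7 and 21.4 and 6.70 in Col-0, with replicate 1 the highest of each group (log2 fold change -1.29 ± 0.62, adjusted p = 0.634). In this test 0 of 5 members were called, 2 had an unadjusted p below 0.05, and 0.142% of 18322 genes were called. With a term for the 3 libraries that stood apart, SEP4 (-1.45 ± 0.25, adjusted p = 0.00897) and FUL (-1.06 ± 0.25, adjusted p = 0.0301) were called, in a fit that called 8.01% of genes. Among those 3 libraries the differences were -1.18 for SEP4 and -1.09 for FUL, and among the other libraries -1.65 and -1.0. AG was at 0, 0.039 and 0.028 in gcn5-7 and at 1.85 and 0.826 in Col-0, below the filter.

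SEP3 rose in nrp1-1 nrp2-2 seedlings of experiment B, and its relatives SEP2 and AP1 were high there too. SEP3, the E class gene that partners most widely with the other classes, was at 3.03, 4.00, 3.04, 3.34 and 1.30 in nrp1-1 nrp2-2 and at 0.509, 0.279, 0.19, 1.27 and 0.538 in Col-0. The groups did not overlap, though nrp1-1 nrp2-2 replicate 5 and Col-0 replicate 4 came close. The log2 fold change was 1.33 ± 0.24 (adjusted p = 0.0126). SEP3 was the sole call among 4 tested members, and 0.39% of genes were called. It passed the filter only through its level in nrp1-1 nrp2-2. With the replicate number as a block, which pairs the libraries here, it was called again (adjusted p = 0.00464) in a fit that called 1.71% of genes. The call was lost with a pseudocount of 0.1 (adjusted p = 0.214), with libraries scaled to equal sums over nuclear genes (0.069), without Col-0 replicate 3 (0.0506) and without replicates 1 and 2 of every group (0.228), where the fold change was 1.09 against 1.69 within those replicates. A fit of only the groups compared lost the call too.

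Without the filter 3 of 9 members were called as higher in nrp1-1 nrp2-2, where 0.311% of genes were called. SEP2 was at 2.12, 1.96, 3.60, 2.79 and 0.677 in nrp1-1 nrp2-2 and at 0.212, 0.155, 0.475, 0.767 and 0.056 in Col-0. The ranges overlapped through nrp1-1 nrp2-2 replicate 5 and Col-0 replicate 4 (log2 fold change 1.23 ± 0.24, adjusted p = 0.0241). AP1 was at 1.59, 3.22, 2.43, 2.39 and 1.24 in nrp1-1 nrp2-2, each above its highest Col-0 value of 0.825 (log2 fold change 1.08 ± 0.22, adjusted p = 0.0431). FUL averaged 8.11 ± 2.90 in nrp1-1 nrp2-2 and 5.45 ± 1.01 in Col-0 (log2 fold change 0.46 ± 0.21, adjusted p = 0.845). It was higher in nrp1-1 nrp2-2 in each of the 5 pairs of equal replicate number. SEP4 averaged 12.0 in nrp1-1 nrp2-2 and 13.7 in Col-0 (log2 fold change -0.15 ± 0.29, adjusted p = 0.983), and AG averaged 0.984 in nrp1-1 nrp2-2 and 0.933 in Col-0. The B class genes had wide spreads: AP3 ranged from 0.289 to 2.36 in nrp1-1 nrp2-2 and from 0.07 to 0.962 in Col-0, and PI from 0.538 to 2.96 in nrp1-1 nrp2-2 and from 0.131 to 1.51 in Col-0. Of the 9 members 8 had a higher mean log2 value in nrp1-1 nrp2-2, against 41.8% of all genes, and 7 did with equal sums over nuclear genes.

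In gcn5-7 nrp1-1 nrp2-2, SEP3 and FUL fell relative to nrp1-1 nrp2-2 in the main fit. SEP3 averaged 0.499 ± 0.469 in gcn5-7 nrp1-1 nrp2-2 and 0.558 ± 0.426 in Col-0 (log2 fold change -0.08 ± 0.24, adjusted p = 0.949). SEP3 was at 0.07, 0, 0.602, 1.13 and 0.691 in gcn5-7 nrp1-1 nrp2-2, each value below the lowest of nrp1-1 nrp2-2 (log2 fold change -1.41 ± 0.24, adjusted p = 0.00424). FUL was at 2.52, 3.56, 2.85, 5.05 and 4.41 in gcn5-7 nrp1-1 nrp2-2 and at 7.56, 12.9, 6.59, 8.17 and 5.31 in nrp1-1 nrp2-2, and these groups did not overlap (log2 fold change -0.94 ± 0.21, adjusted p = 0.0434). Thus 2 of 4 tested members were called where 0.713% of genes were, but SEP3 passed the filter only through nrp1-1 nrp2-2, so the count is not read against that share. Without the filter SEP2 (-1.06 ± 0.24, adjusted p = 0.0434) and AG (-0.81 ± 0.14, adjusted p = 0.00631) made it 4 of 9, where 0.597% of genes were called. AG was at 0.043, 0, 0.053, 0.401 and 0.154 in gcn5-7 nrp1-1 nrp2-2 and at 1.33, 0.592, 0.839, 1.11 and 1.04 in nrp1-1 nrp2-2. With the replicate block SEP3, SEP4 and FUL were called, SEP4 at -0.65 ± 0.16 (adjusted p = 0.0221), in a fit that called 6.34% of genes. The FUL call was lost with 15 of the 20 libraries left out in turn (adjusted p up to 0.148) and held without Col-0 replicate 4, gcn5-7 replicate 1, gcn5-7 nrp1-1 nrp2-2 replicate 4 or nrp1-1 nrp2-2 replicate 3 or 5. Without replicates 1 and 2 of every group the log2 fold change was -0.93 for SEP3 (adjusted p = 0.397) and -0.60 for FUL (adjusted p = 0.484), and with a pseudocount of 0.1 the adjusted p-values were 0.0565 and 0.061. With equal sums over nuclear genes FUL was not called (-0.68 ± 0.22, adjusted p = 0.219), while SEP3 was (adjusted p = 0.0368). In a fit of only the groups compared neither was called.

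Set against gcn5-7, the added nrp1-1 nrp2-2 alleles went with higher levels of all 9 members in mean log2 value, against 45.8% of all genes, also with equal sums over nuclear genes, but 0 of 4 tested members were called, where 3.21% of genes were called and 2 members had an unadjusted p below 0.05. SEP4 averaged 7.35 in gcn5-7 nrp1-1 nrp2-2 and 3.74 in gcn5-7 (log2 fold change 0.89 ± 0.29, adjusted p = 0.0943). FUL averaged 3.68 in gcn5-7 nrp1-1 nrp2-2 and 1.92 in gcn5-7, without overlap (log2 fold change 0.67 ± 0.21, adjusted p = 0.0878). Both were higher in gcn5-7 nrp1-1 nrp2-2 in each of the 5 pairs of equal replicate number. With the replicate block SEP4 (adjusted p = 0.00131), FUL (0.0146) and SEP1 (0.0217) were called, where 25.4% of genes were. AP1 was at 0.254, 1.86, 0.941, 2.43 and 1.10 in gcn5-7 nrp1-1 nrp2-2 and at 0 in each gcn5-7 library, and it was the 1 of 9 members called without the filter (adjusted p = 0.0119), where 2.46% of genes were called. Replicate 1 of gcn5-7 nrp1-1 nrp2-2 was the lowest of its group for AP1. PYK10, the only root gene tested, fell in the same comparison (44.1 in gcn5-7 nrp1-1 nrp2-2, 120.0 in gcn5-7, adjusted p = 0.0163). The part of tissue proportions in these levels was not tested.

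Against Col-0, gcn5-7 nrp1-1 nrp2-2 had 0 of 4 tested members called, where 2.43% of genes were called and 2 members had an unadjusted p below 0.05. SEP4 was at 4.99, 7.53, 4.96, 9.36 and 9.93 in gcn5-7 nrp1-1 nrp2-2, below the Col-0 library of the same number in each of 5 pairs (log2 fold change -0.81 ± 0.29, adjusted p = 0.201). With the replicate block SEP4 was called (adjusted p = 0.00294), where 9.16% of genes were. Without the filter AG was the 1 of 9 members called (-0.75 ± 0.14, adjusted p = 0.00552), where 1.9% of genes were, and its highest value of 0.401 lay below the lowest Col-0 value of 0.456. AP1 averaged 1.32 ± 0.84 in gcn5-7 nrp1-1 nrp2-2 and 0.492 ± 0.292 in Col-0. Whether the effect of gcn5-7 depends on nrp1-1 nrp2-2 was tested as an interaction, in which 0 of 4 members were called, 2 had an unadjusted p below 0.05, and 0.041% of genes were called. The interaction was 1.04 ± 0.41 for SEP4 (adjusted p = 0.58) and -0.99 ± 0.34 for SEP3 (adjusted p = 0.492). With the replicate block SEP4 was called (1.04 ± 0.22, adjusted p = 0.0329) and SEP3 was not (adjusted p = 0.121).

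In experiment A no member passed the test in arp6-1 against Col-0. Every arp6-1 library lay above both Col-0 libraries for SEP1, SEP2, SEP3, FUL and AP3. With 3 and 2 libraries such separation can arise without a difference, and its share over all genes was not counted. SEP3 was at 9.55, 11.6 and 10.8 in arp6-1 and at 1.43 and 1.06 in Col-0. The arp6-1 libraries were close to each other and far above both Col-0 libraries, with a log2 fold change of 2.38 ± 0.40 (adjusted p = 0.138). SEP1 was at 6.91, 13.0 and 5.05 in arp6-1 and at 2.155 and 1.504 in Col-0 (log2 fold change 1.64 ± 0.42, adjusted p = 0.792). FUL was at 71.6, 37.2 and 24.9 in arp6-1 and at 21.4 and 6.70 in Col-0, the highest levels of any member in the study (log2 fold change 1.66 ± 0.62, adjusted p = 1). In both groups replicate 1 was the highest for FUL. SEP2 was at 0.761, 1.60 and 0.971 in arp6-1 and AP3 at 1.26, 2.21 and 0.812, each above both Col-0 libraries but below the filter. SEP4 averaged 13.5 in arp6-1 and 14.1 in Col-0 (log2 fold change -0.04 ± 0.37, adjusted p = 1), and AP1 averaged 3.01 in arp6-1 and 1.30 in Col-0 (log2 fold change 0.76 ± 0.37, adjusted p = 1).

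Of 5 tested members 0 were called in arp6-1, 3 had an unadjusted p below 0.05, and 0.0164% of genes were called. With a term for the 3 libraries that stood apart, SEP3 (2.39 ± 0.33, adjusted p = 0.00827) and FUL (1.89 ± 0.25, adjusted p = 0.0067) were called, where 0.879% of genes were. SEP3 passed the filter only through arp6-1 and gcn5-7 arp6-1. Among those 3 libraries arp6-1 differed from Col-0 by 2.12 for SEP3 and 1.70 for FUL, and among the others by 2.57 and 2.03, with a single Col-0 library in each case. Longer genes were lower in arp6-1 relative to Col-0 across all genes (Spearman's rho -0.42 between exon length and log2 fold change, a description across genes). After a correction for length SEP3 alone of the members was called (2.26 ± 0.32, adjusted p = 0.0419), where 16 of 18322 genes were. Of the 9 members 7 had a higher mean log2 value in arp6-1, against 48.0% of all genes, and the exceptions were SEP4 and AG.

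**Figure D2:**
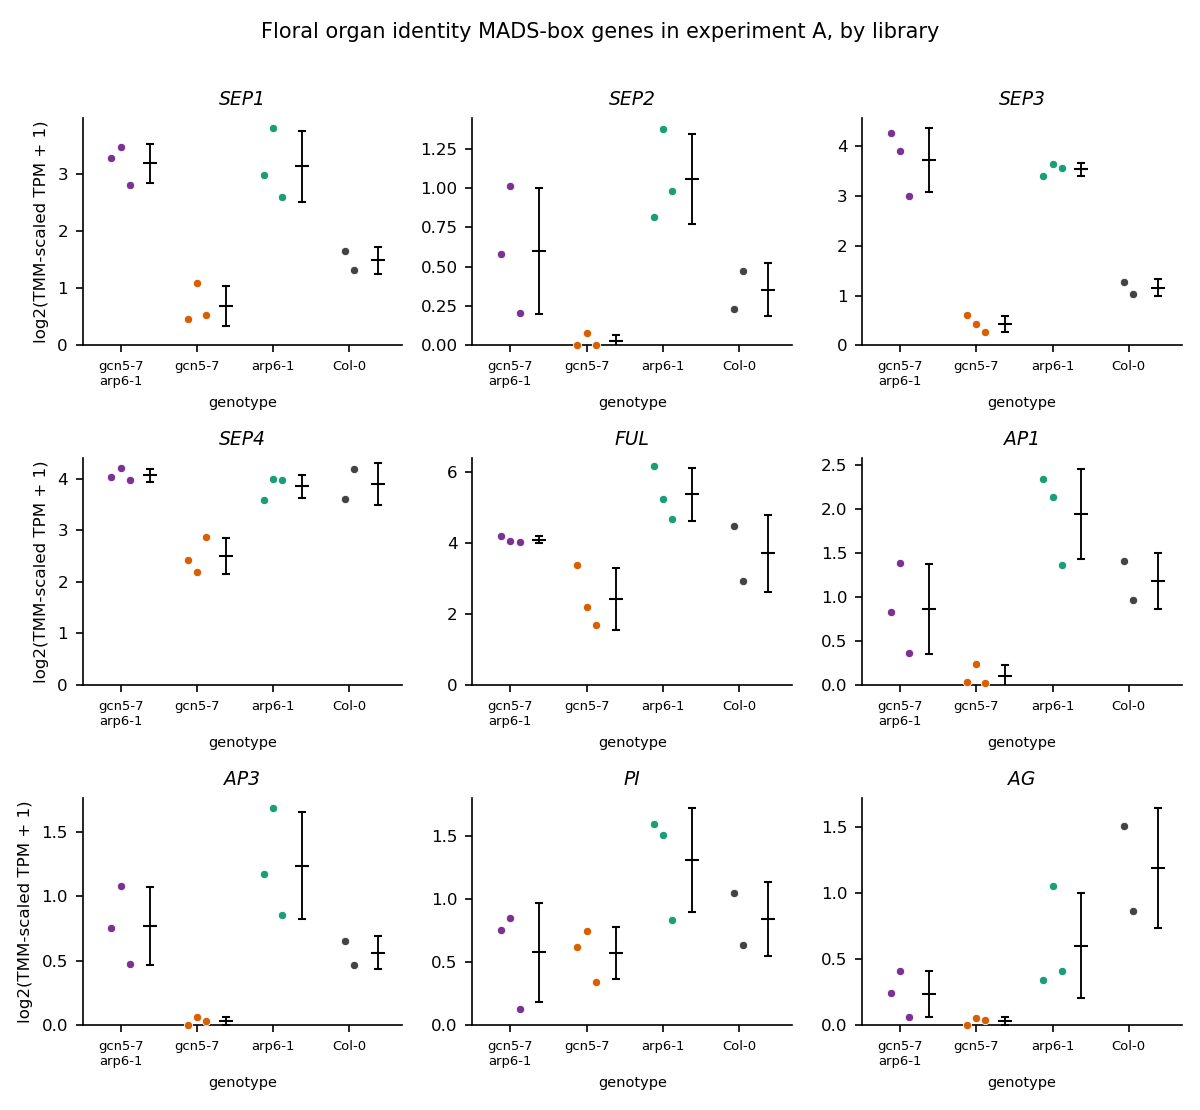
Levels of the 9 genes in experiment A as log2(TMM-scaled TPM + 1), with a point for each library in order of replicate number and a bar for the mean ± SD (n = 3, and n = 2 for Col-0); SD bars are cut at 0. SEP3 spans 7.06 to 18.2 TMM-scaled TPM in gcn5-7 arp6-1 and 9.55 to 11.6 in arp6-1, against 0.206 to 0.515 in gcn5-7 and 1.06 to 1.43 in Col-0.

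The E class genes SEP3, SEP1 and SEP4 rose in gcn5-7 arp6-1 relative to gcn5-7. SEP3 was at 18.2, 14.0 and 7.06 in gcn5-7 arp6-1 and at 0.515, 0.339 and 0.206 in gcn5-7 (log2 fold change 3.30 ± 0.36, adjusted p = 0.000756). SEP1 was at 8.69, 10.1 and 6.01 in gcn5-7 arp6-1 and at 0.369, 1.12 and 0.435 in gcn5-7 (log2 fold change 2.50 ± 0.38, adjusted p = 0.00356). SEP4 was at 15.2, 17.3 and 14.6 in gcn5-7 arp6-1 and at 4.37, 3.57 and 6.32 in gcn5-7 (log2 fold change 1.57 ± 0.33, adjusted p = 0.0131). None of these groups overlapped, and 3 of 5 tested members were called where 13.7% of genes were. SEP3 passed the filter only through gcn5-7 arp6-1 and arp6-1, so the count is not read against that share. FUL averaged 16.2 ± 1.14 in gcn5-7 arp6-1 and 5.12 ± 3.89 in gcn5-7 (log2 fold change 1.67 ± 0.56, adjusted p = 0.0692), and AP1 averaged 0.892 ± 0.67 in gcn5-7 arp6-1 and 0.0757 ± 0.0948 in gcn5-7 (log2 fold change 0.76 ± 0.33, adjusted p = 0.136). All 9 members had a higher mean log2 value in gcn5-7 arp6-1 than in gcn5-7, against 54.1% of all genes, also with equal sums over nuclear genes. Longer genes were higher in gcn5-7 arp6-1 (rho 0.58). With the length correction SEP3, SEP1, SEP4 and FUL were called, in a fit that called 2871 of 18322 genes.

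With the term for the 3 libraries all 5 tested members were called, in a fit that called 40.6% of genes. Without those 3 libraries the log2 fold change was 3.38 for SEP3, 2.38 for SEP1 and 1.53 for SEP4, all called. The SEP3 and SEP1 calls held with each library of A left out in turn, whereas SEP4 was lost without gcn5-7 replicate 2 or without gcn5-7 arp6-1 replicate 2 or 3 (adjusted p up to 0.0799) and with equal sums over nuclear genes (0.0556).

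Relative to Col-0, SEP3 rose in gcn5-7 arp6-1 by a log2 fold change of 2.57 ± 0.40 (adjusted p = 0.0134), with means of 13.1 ± 5.62 in gcn5-7 arp6-1 and 1.24 ± 0.263 in Col-0. It was the 1 call among 5 tested members, where 2.06% of genes were called. As SEP3 passed the filter only through gcn5-7 arp6-1 and arp6-1, this count is not read against that share. SEP1 averaged 8.25 ± 2.05 in gcn5-7 arp6-1 and 1.83 ± 0.46 in Col-0, without overlap (log2 fold change 1.69 ± 0.42, adjusted p = 0.0661). SEP4 averaged 15.7 ± 1.42 in gcn5-7 arp6-1 and 14.1 ± 4.19 in Col-0 (log2 fold change 0.17 ± 0.37, adjusted p = 0.753). AG was at 0.181, 0.327 and 0.042 in gcn5-7 arp6-1, below both Col-0 libraries and under the filter. With the term for the 3 libraries SEP3, SEP1 and FUL were called, and 13.7% of genes were. The SEP3 call was lost without Col-0 replicate 1 or gcn5-7 arp6-1 replicate 2 (adjusted p up to 0.103).

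Between gcn5-7 arp6-1 and arp6-1, AP1 was at the edge of the threshold and no E class gene was called. AP1 was at 0.778, 1.61 and 0.286 in gcn5-7 arp6-1 and at 4.06, 3.40 and 1.58 in arp6-1, with an overlap between gcn5-7 arp6-1 replicate 2 and arp6-1 replicate 3. Its log2 fold change was -1.09 ± 0.33 (adjusted p = 0.0495), and it was the 1 call among 5 tested members, where 14.8% of genes were called, so the count is near the share of all genes. AP1 passed the filter only through its level in arp6-1, and without the filter it was not called (adjusted p = 0.0567). The AP1 call was lost with each of 7 libraries left out in turn (adjusted p up to 0.17), namely every gcn5-7 arp6-1 library, arp6-1 replicates 1 and 2 and gcn5-7 replicates 2 and 3, and it was lost with the length correction (0.0749), a pseudocount of 0.1 (0.0817) and equal sums over nuclear genes (0.163). FUL averaged 16.2 ± 1.14 in gcn5-7 arp6-1 and 44.6 ± 24.2 in arp6-1, without overlap (log2 fold change -1.28 ± 0.56, adjusted p = 0.11). The log2 fold changes of SEP1 (0.05 ± 0.38), SEP3 (0.19 ± 0.36) and SEP4 (0.21 ± 0.33) lay within their standard errors of 0, which does not show that the levels are the same. With the term for the 3 libraries AP1 and FUL were called, where 46.2% of genes were, and without those libraries FUL was called (-0.87 ± 0.24, adjusted p = 0.0164) and AP1 was not.

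The interaction between gcn5-7 and arp6-1 called 0 of 5 members, 1 of which had an unadjusted p below 0.05, and 1.38% of genes. It was largest for SEP4, at 1.61 ± 0.49 (adjusted p = 0.119). With the term for the 3 libraries SEP4 was the 1 member called (1.55 ± 0.33, adjusted p = 0.00545), in a fit that called 36.0% of genes. For FUL and AP1 the interaction was 0.01 ± 0.84 and -0.01 ± 0.50. Comparisons that share gcn5-7 arp6-1 or Col-0 libraries are not independent of each other.

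**Figure D3:**
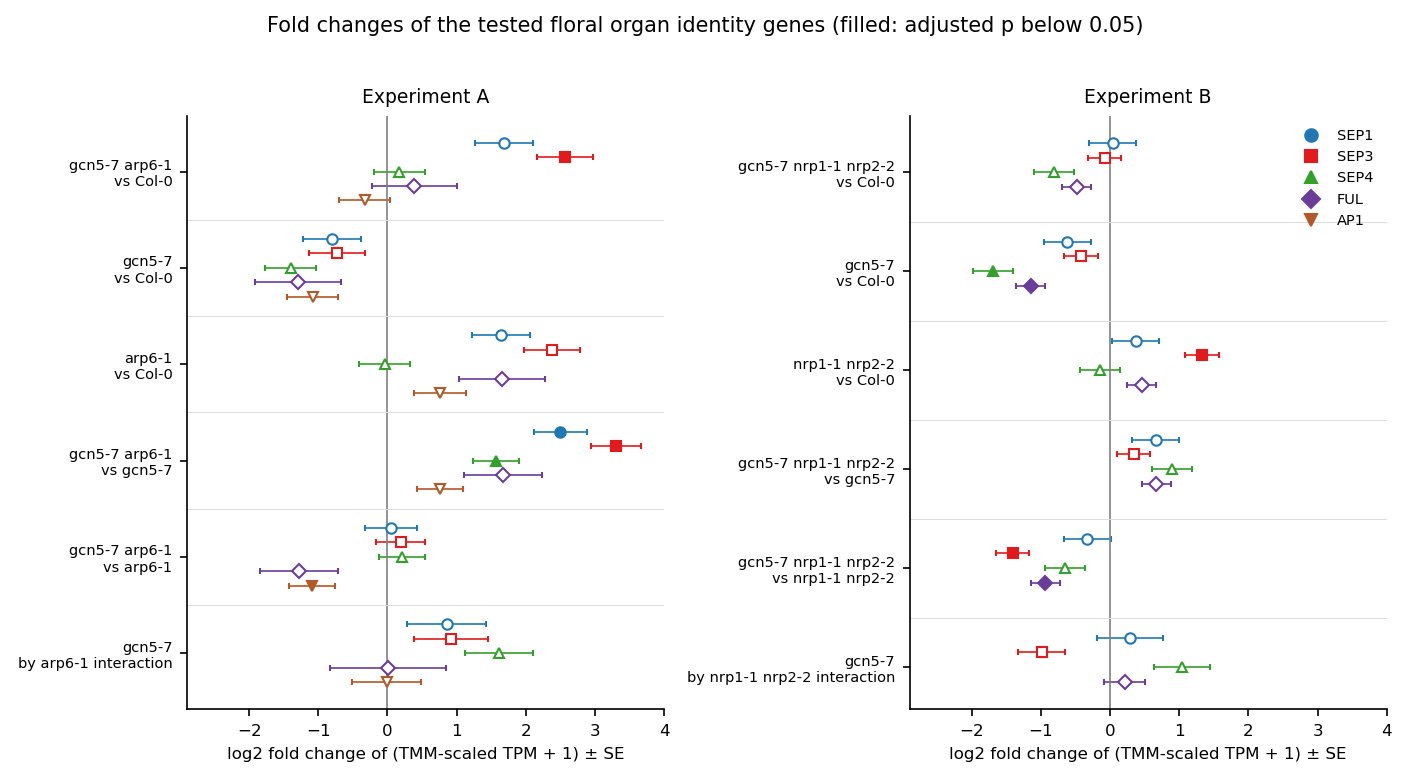
Log2 fold changes ± SE of value + 1 for the members that passed the filter, by comparison (rows), in experiments A and B; filled symbols have an adjusted p below 0.05. SEP3 is filled in 2 comparisons of each experiment, and the 5 members of A lie below 0 in gcn5-7 vs Col-0 and above 0 in gcn5-7 arp6-1 vs gcn5-7.

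Genes that act before the floral organ identity genes were read from a list of activators. Of 14 listed activators 10 were tested in B, and in gcn5-7 against Col-0 5 fell and 1 rose, where 26.2% of all genes tested were called, with a list median of -0.68 against 0.06 for all genes tested. FT, which encodes the florigen, was at 0.416, 0.205, 1.11, 1.09 and 0.254 in gcn5-7 and at 3.49, 2.06, 1.61, 4.33 and 2.10 in Col-0, without overlap (log2 fold change -1.20 ± 0.23, adjusted p = 0.0016). SPL4 averaged 1.36 in gcn5-7 and 5.03 in Col-0 (log2 fold change -1.35 ± 0.28, adjusted p = 0.0026), and AGL24, a MADS-box activator that works with SOC1, averaged 14.9 in gcn5-7 and 30.5 in Col-0 (log2 fold change -0.99 ± 0.21, adjusted p = 0.00271). SPL3 and SOC1 were the other 2 that fell, and LMI1, a homeodomain activator downstream of LFY, rose (log2 fold change 0.66 ± 0.22, adjusted p = 0.0321). LFY itself stayed under the filter, at 0 to 0.436 in gcn5-7 and 0 to 1.64 in Col-0.

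FT rose in gcn5-7 nrp1-1 nrp2-2 relative to gcn5-7, at 1.18, 1.30, 2.13, 2.72 and 2.21 against the gcn5-7 values above (log2 fold change 0.86 ± 0.23, adjusted p = 0.047), as the 1 of 10 tested activators called, where 3.21% of all genes were. In nrp1-1 nrp2-2 against Col-0, the comparison in which SEP3 rose, 0 of 10 were called, and FT averaged 3.51 in nrp1-1 nrp2-2 and 2.72 in Col-0 (log2 fold change 0.32 ± 0.23, adjusted p = 0.983). In A, 8 of 14 activators were tested, and 0 were called in gcn5-7 against Col-0, where 0.142% of all genes were (list median -0.69). In gcn5-7 arp6-1 against gcn5-7, 3 were called, where 13.7% of all genes were and longer genes were higher (rho 0.58). FD, the bZIP partner of FT (log2 fold change 0.91 ± 0.21, adjusted p = 0.0199), and SPL4 (1.31 ± 0.39, adjusted p = 0.048) rose in gcn5-7 arp6-1 relative to gcn5-7. AGL24 fell there to 5.37, against 37.7 in gcn5-7 (log2 fold change -2.66 ± 0.55, adjusted p = 0.0123). The activators were read from the main fit only, without the length correction or the term for the 3 libraries that stood apart. FT was at 0.74, 5.44 and 5.98 in gcn5-7 arp6-1, at 1.25, 0.524 and 0.536 in gcn5-7, at 22.7, 23.2 and 4.85 in arp6-1 and at 16.4 and 0.832 in Col-0, so that the Col-0 libraries alone spanned most of the range. SPL3 and SPL15 were listed at 0 in every library of A and above 0 in every library of B. Whether both tables were counted with the same annotation is not given in the labels, so these zeros are not read as absent RNA.

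**Figure D4:**
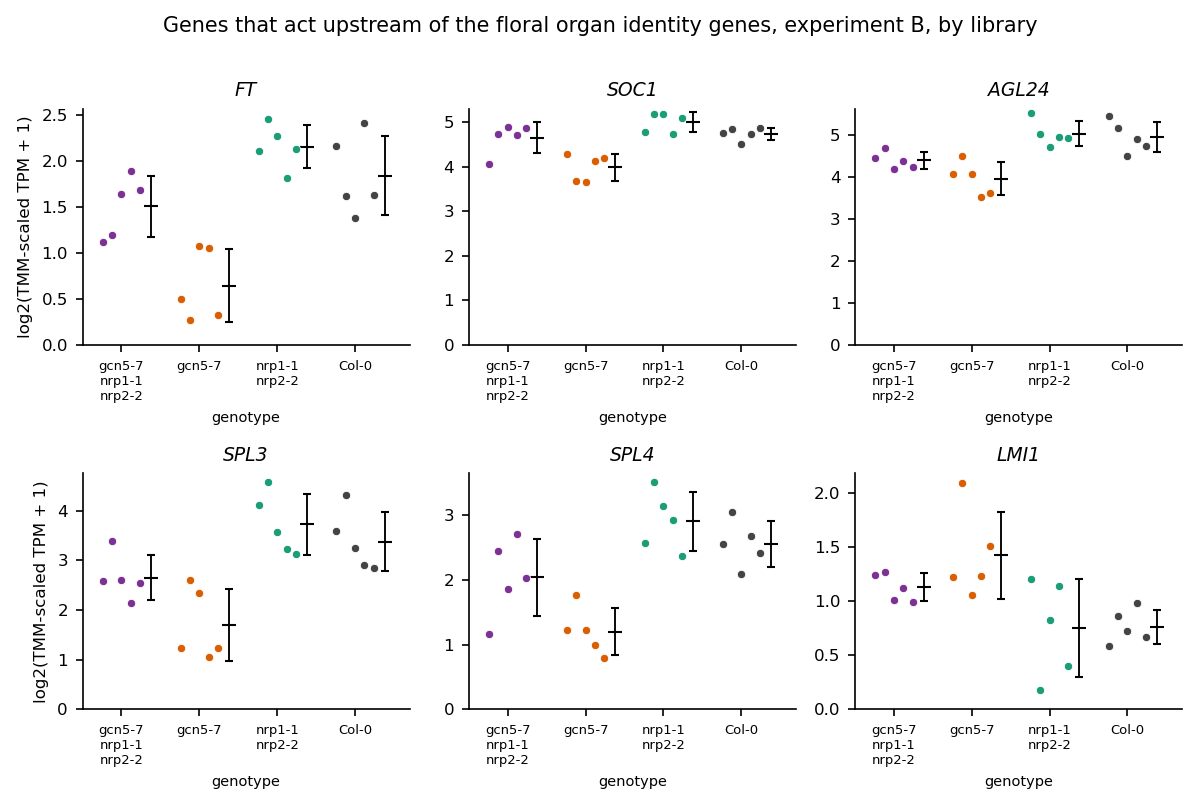
Levels of 6 genes that act upstream of the members, those called in gcn5-7 vs Col-0 of experiment B, as log2(TMM-scaled TPM + 1), with a point for each library and a bar for the mean ± SD (n = 5 each). FT spans 0.205 to 1.11 TMM-scaled TPM in gcn5-7, below the Col-0 range of 1.61 to 4.33, while LMI1 is higher in gcn5-7.

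Among 16 listed repressors, 16 were tested in B, and in gcn5-7 against Col-0 SMZ (log2 fold change 1.08 ± 0.25, adjusted p = 0.0047) and CLF (0.59 ± 0.21, adjusted p = 0.0425) rose while SNZ fell (-1.17 ± 0.25, adjusted p = 0.00337). These 3 of 16 are a smaller share than the 26.2% of all genes called there. SMZ and SNZ are AP2-type repressors of flowering, and CLF is a Polycomb methyltransferase that keeps AG silent. In A, 15 were tested. Relative to gcn5-7, SNZ and SWN rose and AP2 fell in gcn5-7 arp6-1, where 13.7% of all genes were called. Relative to arp6-1, where 14.8% were, 5 rose in gcn5-7 arp6-1, among them SWN (2.58 ± 0.39, adjusted p = 0.00471), a Polycomb methyltransferase related to CLF, and EMF1 (1.55 ± 0.38, adjusted p = 0.0271), which acts with Polycomb, while TFL1, the antagonist of FT, fell (-1.47 ± 0.28, adjusted p = 0.0101). The list median there was 0.87 against 0.12 for all genes tested, in a comparison where longer genes were higher (rho 0.69). The repressors were read from the main fit only, without the length correction, so the part of length in these calls was not tested.

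Other floral MADS-box genes were scarcely present. Of 14 listed relatives, CAL, the closest relative of AP1, stayed at or below 0.363 in every library, and the summed level of the 14 genes was 0.898 to 5.82 in A and 1.68 to 5.67 in B. In A 2 of these were tested. AGL19, an activator held by Polycomb repression, rose in gcn5-7 arp6-1 against all other genotypes, to 3.66, against 0.687 in gcn5-7 (log2 fold change 1.47 ± 0.25, adjusted p = 0.00514), 0.132 in arp6-1 (2.03 ± 0.25, adjusted p = 0.00225) and 0.588 in Col-0 (1.54 ± 0.28, adjusted p = 0.0245). In these comparisons 13.7%, 14.8% and 2.06% of all genes were called. AGL42, the other relative tested, fell in gcn5-7 arp6-1 relative to arp6-1. The interaction of AGL19 was also called (1.96 ± 0.37, adjusted p = 0.0372), where 1.38% of all genes were. AGL19 passed the filter only through its level in gcn5-7 arp6-1, so its calls are not read against those shares. Of 12 genes of later floral programmes, such as the carpel gene CRC and the anther gene DYT1, 9 to 11 averaged below 1 in every group. The exception that was tested, NAP, is a target of AP3 and PI that also acts in leaf senescence. It rose in gcn5-7 of B, to 11.6 against 1.74 in Col-0 (log2 fold change 2.08 ± 0.63, adjusted p = 0.0213), where 26.2% of genes were called. NAP was also called as higher in gcn5-7 nrp1-1 nrp2-2 than in Col-0 (log2 fold change 2.39), where 2.43% of genes were called.

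Members varied together to different degrees across libraries, as a description over 11 libraries of A and 20 of B that share genotype and scaling. SEP1 and SEP3 had r = 0.96 in A and 0.58 in B, SEP2 and SEP3 had 0.80 and 0.93, and FUL and AP1 had 0.86 and 0.79. AG and SEP3 had r = 0.08 in A and 0.68 in B. Among 17451 genes measured in both tables, the gene most like SEP4 by the smaller of its correlations in A and B was AT4G17360 (0.942), followed by BRS1 (0.917) and BETA-OHASE 2 (0.913). For FUL these were AT4G11211 (0.929), SPL4 (0.92) and AT4G30450 (0.916), for SEP1 WSD1 (0.887), TYRDC (0.828) and HO2 (0.806), and for SEP3 AT4G23680 (0.812), AT2G17280 (0.812) and FUL (0.751). The closest pair in coding sequence was SEP1 and SEP2, at 86.4% identity with identical runs of up to 32 bases, and the next, SEP2 and SEP3, reached 68.6%. SEP1 also overlaps 2 genes on the opposite strand, AT5G15790 by 100 bases and the noncoding AT5G02455 by 449 bases. The strand setting of the counting is not given in the sources used here. Whether reads within these overlaps were assigned to the right gene is therefore not known.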

How the data were processed

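RNA of 31 libraries in 2 experiments was measured by RNA sequencing. The deposited values are signal: TPM scaled by TMM factors, as the deposited tables are titled, with column sums that differ between libraries. The submitters' processing notes name fastp 0.23.4, HISAT2 2.2.1 and TAIR10 without giving their roles. The sources used here do not give the counter, the annotation or the strand setting. From the low values, whole reads per gene were recovered as a measure of depth: 98.4% to 99.5% of values below 20 reads lay within 0.05 of a whole number in A and 99.4% to 99.7% in B. Exon lengths came from RefSeq TAIR10.1 and were found for 32548 of 32833 genes.

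Groups were taken from the labels. For each experiment, log2(value + 1) of every gene averaging 1 or more across its libraries was fitted with limma 3.58.1 (R 4.3.3; trended and robust variance, all groups in 1 fit), and p-values were adjusted by Benjamini-Hochberg over all genes tested, with a call at an adjusted p below 0.05. The fit was tested on simulated data. Values within each table only were tested, since the tables were scaled separately. Alternatives were a pseudocount of 0.1, no filter, equal sums over nuclear genes, a gene-length correction, fits of only the groups compared, a replicate block, a term for the 3 libraries of A that stood apart, fits without those 3 or without replicates 1 and 2 of B, and leaving out each library. The members and lists were chosen with earlier results of these data known. The genes named are the members, the listed genes whose call the text gives, and the 3 genes most like each tested member.

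Same-numbered libraries of B deviated together in 4 comparisons, where every pair had r of 0.116 to 0.798, above the limit of 0.1. In gcn5-7 against Col-0 of B the lowest pair had 0.018. Sequences and figures were made with Python 3.11.15, pandas 2.3.3, numpy 2.4.6, Biopython 1.88 and matplotlib 3.10.9.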

Additional observations from a re-analysis of the deposited data

Results flagged for a closer look

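AP3 in Col-0 replicate 4 of experiment B was at 0.962 TMM-scaled TPM, far above the other 4 Col-0 libraries at 0.07 to 0.133. It was 1 of 34 groups of 5 libraries examined in which a library lay this far from the rest, where chance flags about 1 in 20 groups.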

How the results depend on the processing

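Each of 54 results of tested members was recomputed under the alternatives, 1209 values in all, of which 1087 kept their direction and side of the threshold, and 0 called values changed sign. In A, the count of called members became 1 (length correction) and 2 (term for the 3 libraries) in gcn5-7 against Col-0, where it was 0. Of all 18322 genes, 218 and 1468 were called in those fits, against 26 in the main fit. The count of members became 1 (length correction), 1 (replicate block) and 2 (term) in arp6-1 against Col-0, where it was 0. All genes called there were 16, 9 and 161, against 3 in the main fit. In gcn5-7 arp6-1 against Col-0, where the count was 1, it became 0 (only the groups compared), 2 (block) and 3 (term). All genes called there were 0, 2477 and 2514, against 378 in the main fit. Against gcn5-7 the count for gcn5-7 arp6-1 became 5 with the block and 5 with the term, where it was 3. All genes called there were 6952 and 7445, against 2504 in the main fit. Against arp6-1 the count, at 1, became 0 with a pseudocount of 0.1, 0 without the filter, 0 with equal sums and 0 with the length correction. It became 2 with only the groups compared, 2 with the block and 2 with the term. All genes called in these fits, in that order, were 1737, 2873 (of 27079), 2323, 1373, 7692, 9117 and 8470, against 2715 in the main fit. The interaction, at 0, became 1 with the block, 1 with the term and 1 without the 3 libraries. Its fit with the term called 6595 of all genes, against 252 in the main fit. In B, nrp1-1 nrp2-2 against Col-0, at 1, became 0 (pseudocount), 3 (no filter), 0 (equal sums), 0 (only the groups compared) and 0 (without replicates 1 and 2). For gcn5-7 nrp1-1 nrp2-2 the count became 1 without the filter and 1 with the block against Col-0, and 1 without the filter and 3 with the block against gcn5-7, where it was 0 in both. Against nrp1-1 nrp2-2, at 2, it became 0 (pseudocount), 4 (no filter), 1 (equal sums), 0 (only the groups compared) and 0 (without replicates 1 and 2). The interaction of B, at 0, became 1 (SEP4) with the block. The cause of these changes was not tested. As the number of all genes called also moved between fits, the counts are not read as results about the members.

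With each library left out in turn the counts ranged from 0 to 2 in gcn5-7 arp6-1 against Col-0, from 2 to 4 against gcn5-7, from 0 to 1 against arp6-1 and in the interaction of A, and were 0 to 0 for gcn5-7 and for arp6-1 against Col-0. In B they ranged from 0 to 1 for nrp1-1 nrp2-2 against Col-0, from 0 to 1 for gcn5-7 nrp1-1 nrp2-2 against gcn5-7, from 1 to 2 against nrp1-1 nrp2-2, and were 2 to 2 for gcn5-7 against Col-0 and 0 to 0 otherwise. In A the replicate numbers did not pair the libraries in every comparison (r from -0.033 to 0.859), so its block results share only a number. In gcn5-7 against Col-0 of B the block added SEP1 (adjusted p = 0.0141). Equal sums moved the median gene of gcn5-7 arp6-1 against Col-0 to 0.79, where it was 0.18. Members with few reads, such as AP3, PI and AG, limit what B can show.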
